A study of Mus musculus with 4 samples.

Results

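Dermal gene expression at 15 days post-coitus (dpc) was compared with that of virgin mice, keeping only the changes that the abdominal and the dorsal skin of the pregnant mice shared. The comparison used 3 of the 4 arrays of the series: abdominal (ventral) skin dermis of virgin mice, abdominal skin dermis of 15 dpc mice and dorsal skin dermis of 15 dpc mice, called below the virgin, abdominal and dorsal arrays. All were adult C57BL/6 females, given as 10 weeks old, whose skin was injected with the vehicle dimethyl sulphoxide (DMSO) 2 times daily over 4 days, starting at 12 dpc where the mice were pregnant. The remaining array, of 15 dpc abdominal skin that received PP2, an inhibitor of Src family kinases, by the same schedule, is called the PP2 array and its values are given only beside genes and gene lists described below. Sample titles give 15 dpc and sample descriptions give 16 dpc, and the sources used here do not say whether the RNA on an array came from 1 mouse or several. A dorsal array of virgin mice was not analysed here, so pregnancy and body site cannot be told apart for the dorsal array. Both 15 dpc arrays were divided by the same virgin array, and anything peculiar to that array enters both ratios. Each condition had 1 array, so that no value below has an error and no difference has a test or a replicate check.

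The dermis is the connective tissue of the skin, built by fibroblasts and holding blood vessels, nerves, immune cells and the lower parts of the hair follicles. A hair follicle cycles between rest and growth. During growth its matrix cells, driven by the dermal papilla at the base, build the hair shaft from hair keratins embedded in keratin-associated proteins. Macrophages and dendritic cells of the dermis take up debris, present antigen on MHC class II and make chemokines and complement. During pregnancy abdominal skin expands with the growing abdomen.

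The deposited value of each probe set is a MAS5 signal, an intensity on a linear scale, with a detection call of present, marginal or absent. Probe sets entered when they had 1 gene symbol and a present call on at least 1 of the 3 arrays, and the one with the highest mean log2 signal over these arrays stood for its gene. That gave 13296 genes of the 18193 with such a symbol on the array, of which 11249 (84.6%) were called present on all 3. A gene was counted as higher when its signal was over 2-fold the virgin signal on both 15 dpc arrays and both called it present. It was counted as lower when the virgin signal was over 2-fold that of both and was called present. The size of a shared change is the smaller of the 2 ratios. Where the dimmer array did not call the gene present, the fold was taken against the larger of its signal on that array and the dimmest present signal of that array, and is written as at least that value. These are called bounds below. They are nominal and not strict limits, because absent calls also occurred far above the dimmest present signal. On the virgin array that signal was 10.7, while *Krtap8-1* was called absent at 107.

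By this rule 175 genes (1.32% of those compared) were higher and 167 (1.26%) were lower on both 15 dpc arrays. On the abdominal array taken alone 453 genes (3.41%) were higher than on the virgin array and 472 (3.55%) lower, and on the dorsal array 717 (5.39%) were higher and 617 (4.64%) lower. The median log2 ratio over all genes compared was 0.02 on the abdominal and -0.01 on the dorsal array. The change exceeded 4-fold on both arrays for 41 higher and 25 lower genes, and 8-fold for 26 higher and 4 lower genes. Just inside the threshold stood *8430431K14Rik* at 2.0004-fold higher and *Atp8b4* at 2.003-fold lower, while *Kcnip1* and *Ms4a6b* with 1.997-fold and 1.9997-fold stood just outside. Many of these genes were dim. The median signal of the higher genes was 97.7 on the virgin, 502 on the abdominal and 393 on the dorsal array, and that of the lower genes was 262, 76.5 and 62.4, against 547, 587 and 553 for all genes compared. All 3 arrays called 105 of the 175 higher genes and 79 of the 167 lower genes present. With 50 added to every signal, which damps the ratios of dim genes, *Ereg*, *Krt25*, *Krtap14*, *Foxn1*, *Ovol1*, *Ovol2*, *Grhl1*, *Abca12*, *Il4ra*, *Krt16*, *Zic1*, *Slc5a8*, *Csn2*, *Corin* and *Fam107a* of the higher and *C3ar1*, *Ccl7*, *Ccr2*, *Igf2bp1*, *Mrc1*, *Mx1*, *Myh1*, *Neb*, *Rspo2*, *Sdf2l1*, *Tlr1* and *Zbp1* of the lower genes named below no longer passed 2-fold at both sites. The folds printed below are the values by which a gene was counted. In the plot of both ratios, the higher genes farthest out along the abdominal axis were mostly genes of keratin-associated proteins. The virgin array called few of these present, so their distance rests on low virgin signals.

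**Figure D1:**
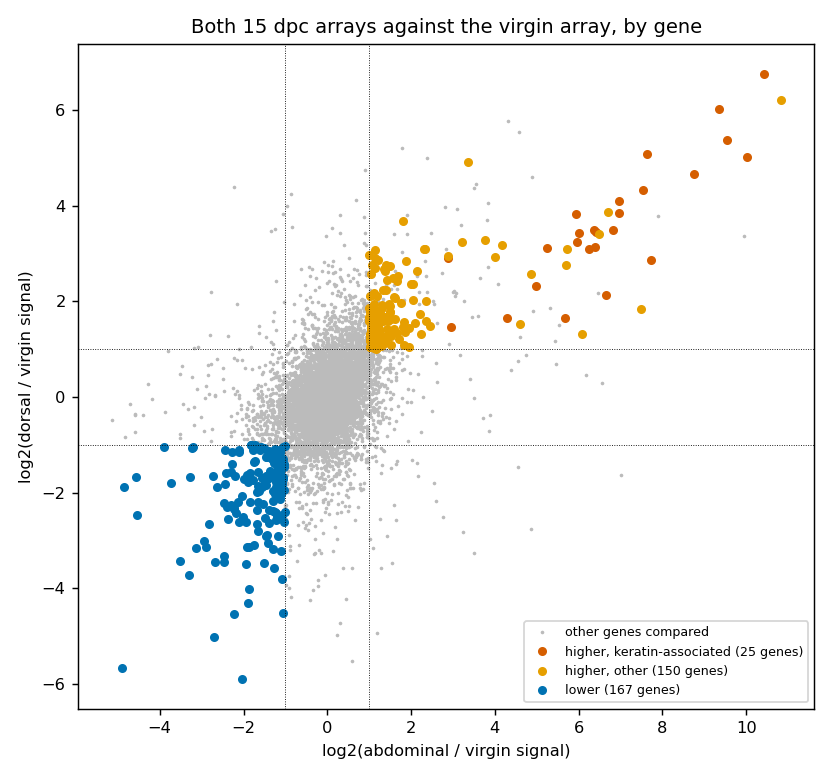
Each point is 1 of 13296 genes, placed by the log2 ratio of its abdominal (x axis) and dorsal (y axis) signal to the same virgin signal, with dotted lines at 2-fold. Orange points are the 175 genes higher on both 15 dpc arrays, the darker ones being 25 genes of keratin-associated proteins, and blue points are the 167 lower genes. Grey points past both lines at the upper right lacked the present calls that the rule asks for. At the lower left the present call left out no gene.

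The keratin-associated proteins, small proteins that crosslink the hair keratins, formed the most prominent group. Of 33 *Krtap* genes compared, 25 were higher on both 15 dpc arrays and 0 were lower, and the 8 others were all over 2-fold higher on the abdominal array but did not meet the rule on the dorsal one. The start regions of these genes are shown because the genes stand side by side on the chromosome and were higher together. RefSeq gives a promoter window on GRCm38.p6, reaching from 250 bases before to 50 after the start, for 24 of the 25. The 60 bases before the start are printed 5′ to 3′ on the gene's strand, with each TATAAA, the letters searched as the TATA box, in capitals.
*Krtap9-3* (chr11:99598107-99598166, minus strand): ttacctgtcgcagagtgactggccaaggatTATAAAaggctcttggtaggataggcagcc
*Krtap16-3* (chr16:88962874-88962933, minus strand): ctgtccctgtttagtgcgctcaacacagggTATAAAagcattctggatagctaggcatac
*Krtap17-1* (chr11:99993995-99994054, minus strand): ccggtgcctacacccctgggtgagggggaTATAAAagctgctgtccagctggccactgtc
*Krtap4-6* (chr11:99665961-99666020, minus strand): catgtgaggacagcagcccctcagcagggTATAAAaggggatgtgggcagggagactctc
*Krtap6-3* (chr16:89083964-89084023, plus strand): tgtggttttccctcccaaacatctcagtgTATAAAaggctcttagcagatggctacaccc
*Krtap8-1* (chr16:89487953-89488012, minus strand): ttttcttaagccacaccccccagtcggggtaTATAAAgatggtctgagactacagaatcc
*Krtap19-2* (chr16:88874270-88874329, minus strand): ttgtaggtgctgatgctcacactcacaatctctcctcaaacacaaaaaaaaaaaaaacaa
*Krtap19-3* (chr16:88878039-88878098, minus strand): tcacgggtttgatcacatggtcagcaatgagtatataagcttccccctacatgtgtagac
On their own strand, 18 of the 24 windows held TATAAA. In 14 of them it began at positions -37 to -29 from the start, most often at -31 (7 genes). Of all 27025 windows, 2.22% held TATAAA on the gene's strand beginning at positions -40 to -20. *Krtap19-2* and *Krtap19-3* are among the 6 without these exact letters. The window of *Krtap19-3* does hold the similar tatataag, which the search did not count. Counted on both strands, TATAAA stood in 75.0% of the 24 windows, in 20.2% of those of the 119 other higher genes with a window, in 20.7% of 116 lower genes, in 8.08% of the 10668 genes compared that had a window and in 14.2% of all 27025 windows. CCGCCC, the letters of the GC box, stood in 0 of the 24 windows and in 62.5% of those of the genes compared. These matches describe letters only.

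On the virgin array the 25 *Krtap* genes had signals of 2.90 to 159, with a median of 30.9, and 2 of them were called present. Their signals were 340 to 10723 on the abdominal array (median 3297) and 97.7 to 1192 on the dorsal array (median 314). By the rule both 15 dpc arrays stood above the virgin array. With undetected signals taken at their bound, the median fold was 85.1 on the abdominal and 10.9 on the dorsal array. The abdominal signal was above the dorsal one for 24 of the 25. *Krtap19-3* was at 2.90 on the virgin array, not called present, at 3992 on the abdominal and at 314 on the dorsal array. It was at least 374-fold higher in abdominal and at least 29.4-fold higher in dorsal dermis. *Krtap15* was at 4.89, 5042 and 159 in the same order, the virgin signal again not called present, which put it at least 472-fold and at least 14.9-fold higher. *Krtap6-5* was called present on all arrays, at 96.8, 8239 and 1058, and was 85.1-fold and 10.9-fold higher. *Krtap17-1* was the exception to the abdominal excess. Its signal was 159 on the virgin, 1178 on the abdominal and 1192 on the dorsal array, 7.42-fold and 7.51-fold higher.

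In the order of genes along the chromosomes, in which 13264 of the genes compared could be placed, 39 of the 175 higher genes lay in 7 unbroken runs of 2 or more. The longest run held 19 genes from *Krtap14* onward, the next 10 genes from *Krtap3-1* to *Gm11559*, and both included predicted genes among the *Krtap* genes. *Gm11559*, at 1.72 and not called present on the virgin array, was at 3132 and 128, at least 293-fold and at least 12.0-fold higher. *Gm10228* was present throughout, at 60.9, 6342 and 895, or 104-fold and 14.7-fold higher. Members of this family share much of their sequence, and the files do not show how far their probes tell them apart. Of the 25 probe sets, 24 carry the plain suffix of probes designed for 1 transcript and 1 a suffix for probes shared by several.

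On the list of hair shaft and root sheath genes the shared change lay mostly in the *Krtap* genes, while the keratins were higher mostly on the abdominal array. Of its 41 genes compared, 17 were higher on both arrays and 0 were lower. The 17 were 15 of the 18 *Krtap* genes on the list, *Krt25* and *Tchh*. Of its 16 keratins, 15 were present and over 2-fold higher on the abdominal array and 1 on the dorsal array, which called 3 of them present. Taken singly, the abdominal array had 38 genes of the list higher and 0 lower, the dorsal array 18 higher and 2 lower, and the median log2 ratio was 4.87 on the abdominal and 1.47 on the dorsal array. Their summed signal was 2448 on the virgin, 85891 on the abdominal and 7358 on the dorsal array, with 8, 41 and 21 of the 41 called present. The abdominal array thus carried most of this signal. The inner root sheath keratin *Krt25* was at 19.6, 3524 and 70.4, which is 180.0-fold higher in abdominal and 3.60-fold in dorsal dermis. *Krt28*, another inner root sheath keratin chosen after its values were seen, went the other way in dorsal dermis, at 133, 903 and, without a present call, 23.3, which is 6.79-fold higher in abdominal and at least 5.70-fold lower in dorsal dermis. The other gene of the list that was lower in dorsal dermis was *Dsc2*, a desmosomal cadherin, at 449, 269 and 157. *Tchh*, the trichohyalin that hardens the inner root sheath, was at 129, 3134 and 375, 24.2-fold and 2.90-fold higher. *Prr9*, which encodes a proline-rich protein, was at 72.3, 3778 and 494, 52.2-fold and 6.83-fold higher. *Krt75*, a keratin of the companion layer chosen here after its values were seen, differed from these in being about as bright in dorsal as in abdominal dermis, at 114 without a present call, 473 and 585. In bulk RNA, fewer or more cells of a type and less or more RNA per cell cannot be told apart, here and in every group below.

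Transcription factors of the hair matrix followed in part. Of 16 compared, 3 were higher, 0 were lower, and the medians were 0.37 and 0.27. *Foxn1*, the factor whose loss makes nude mice, was at 62.8, 189 and 168, 3.01-fold and 2.68-fold higher. *Ovol1*, a zinc finger factor of differentiating hair and epidermal cells, was at 154, 325 and 572, 2.11-fold and 3.71-fold higher. *Zic1*, at 34.3, 2308 and 85.8, was 67.2-fold higher in abdominal dermis but only 2.50-fold higher in dorsal dermis. The other probe set of *Zic1* did not show a dorsal increase. It was at 14.4 on the virgin array, 388 on the abdominal and 1.95 on the dorsal array, and only the abdominal signal was called present. *Zic1* is also on the list of Hox and positional genes.

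**Figure D2:**
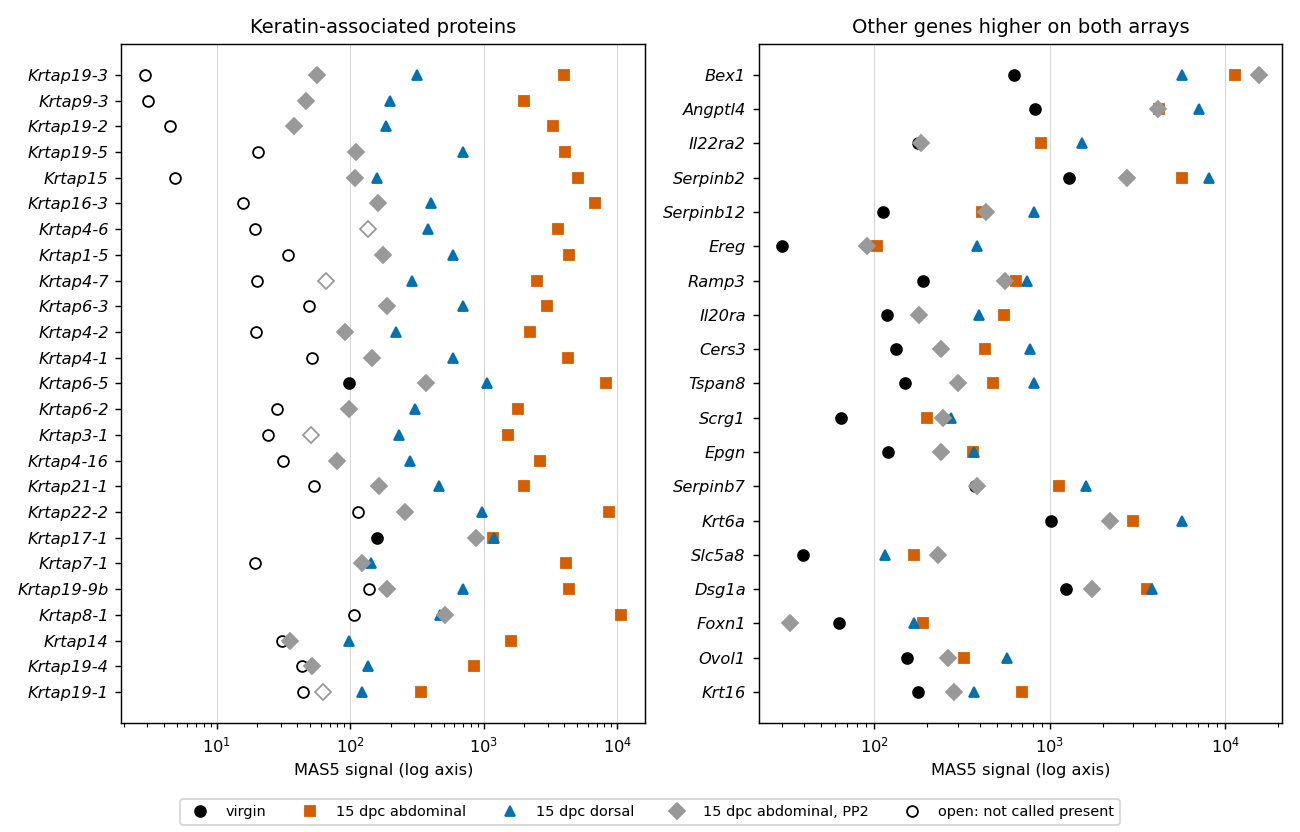
MAS5 signals (log axis) of the 25 keratin-associated genes (left) and of 19 other genes (right) that were higher on both 15 dpc arrays, 1 symbol per array and open where the array did not call the gene present. The abdominal signals of 24 of the 25 keratin-associated genes lie above the dorsal ones. By the rule of the comparison both lie above the virgin signals, which are mostly open for these genes.

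The 150 higher genes other than *Krtap* genes leaned the other way, the dorsal signal being above the abdominal one for 96 of them. Over all genes compared, the dorsal array taken alone also had more higher genes than the abdominal one (717 against 453). Several of the 150 belong to the epidermis. On the list of epidermal keratinocyte genes 3 of 35 were higher and 0 lower, and the medians were 0.32 on the abdominal and 1.05 on the dorsal array. *Krt6a*, a keratin of the follicle's companion layer and of activated epidermis, was at 1012, 2992 and 5663, 2.96-fold and 5.60-fold higher. *Krt16*, its partner, was at 178, 691 and 369, 3.87-fold and 2.07-fold higher. *Dsg1a*, a desmosomal cadherin, was at 1244, 3567 and 3847, 2.87-fold and 3.09-fold higher. Of these 3, *Krt16* stood farther above the virgin array in abdominal and *Krt6a* in dorsal dermis. The summed signal of the 35 keratinocyte genes in these dermal preparations was 146188 on the virgin, 179199 on the abdominal, 248121 on the dorsal and 110186 on the PP2 array, with 30 to 34 of them called present. It was highest on the dorsal array, and its part in the higher genes described here was not tested.

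The serpins of clade B, inhibitors of proteases made by squamous epithelia and leukocytes, gave 3 higher and 2 lower genes among 13 compared. *Serpinb2*, the plasminogen activator inhibitor type 2, was at 1294, 5686 and 8036, 4.40-fold and 6.21-fold higher. *Serpinb12* was at 112, 411 and 811, 3.66-fold and 7.21-fold higher. *Serpinb7*, the neighbour of *Serpinb2*, was at 376, 1131 and 1613, 3.01-fold and 4.29-fold higher. For all 3 the dorsal signal was above the abdominal one. The lower genes of the family, named here as its only lower members, were *Serpinb6c*, at 388, 118 and 153, and *Serpinb6e*, at 1791, 768 and 299. *Cers3*, the ceramide synthase of the epidermal barrier, was at 134, 429.7 and 774, 3.21-fold and 5.78-fold higher. Metallothionein *Mt4*, the form found in stratified epithelia, was at 1598, 4069 and 3744, 2.55-fold and 2.34-fold higher. Other barrier and epithelial genes among the 175, picked after their values were seen, were the lipid transporter *Abca12*, the keratin *Krt80*, the cell cycle and epidermal regulator *Sfn* and the factors *Zfp750*, *Grhl1* and *Ovol2*. Their folds lay between 2.04, for *Grhl1* in abdominal dermis, and 3.50, for *Zfp750* in dorsal dermis.

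Some further higher genes encode ligands or receptors, for which no list was counted. The neighbouring genes *Epgn* and *Ereg* encode epigen and epiregulin, ligands of the EGF receptor. *Epgn* was at 119, 364 and 371, 3.05-fold and 3.10-fold higher. *Ereg* was at 30.0, 104 and 385, 3.47-fold and 12.8-fold higher. Epigen was thus nearly level between the sites, and epiregulin was brighter in dorsal dermis. The neighbours *Il22ra2* and *Il20ra* encode a soluble receptor that binds interleukin 22 and a subunit of the interleukin 20 receptor. *Il22ra2* was at 178, 887 and 1518, 4.99-fold and 8.54-fold higher. *Il20ra* was at 118, 551 and 393, 4.67-fold and 3.34-fold higher. *Il31ra* and *Il4ra*, further cytokine receptor genes chosen after their values were seen, were 3.49-fold and 2.76-fold, and 2.20-fold and 2.70-fold higher. *Il1rn*, which encodes the interleukin 1 receptor antagonist, was at 98.7 without a present call on the virgin array, and at 279 and 255. Its other probe set was called present on all 3 arrays, at 91.9, 184 and 150.5, and was 2.01-fold higher in abdominal but only 1.64-fold in dorsal dermis. *Il1rn* was the only one of 16 genes on the list of neutrophil and acute inflammation genes that was higher, while 4 were lower.

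The remaining higher genes named here came from no single group. *Bex1*, a small adaptor protein best known from neurons, was at 628, 11387 and 5669.9, 18.1-fold and 9.03-fold higher. The abdominal signal was the highest of the 3. *Angptl4*, a secreted inhibitor of lipoprotein lipase and a target of PPAR receptors, was at 825, 4181 and 7067, 5.07-fold and 8.56-fold higher. The adipocyte list gave 0 called genes among 18, with medians of 0.38 and -0.36. *Ramp3*, the partner protein that turns the calcitonin-receptor-like receptor into an adrenomedullin receptor, was at 189.9, 639 and 747, 3.37-fold and 3.94-fold higher. *Slc5a8*, a sodium-coupled monocarboxylate transporter, was at 39.2, 168 and 115, 4.28-fold and 2.95-fold higher. *Tspan8*, a tetraspanin, was at 150.4, 478 and 811, and *Scrg1* at 65.1, 201 and 275, both higher at both sites. *Kcnmb1*, the smooth muscle subunit of a potassium channel, was at 6.86 without a present call, 92.8 and 66.6, at least 8.69-fold and at least 6.24-fold higher. It was the single called gene among 19 of smooth muscle and pericytes, whose medians were -0.08 and -0.30. *Tyrp1*, an enzyme of melanin synthesis, was at 439 without a present call, 957 and 1695, and was the only one of 11 melanocyte genes called. The virgin array did call its other 2 probe sets present. One of them, at 449, 890.4 and 1606, was 1.98-fold and 3.58-fold higher, just short of the threshold in abdominal dermis, and the other, at 123, 389 and 363, was 3.16-fold and 2.96-fold higher. *Csn2*, the milk protein beta-casein, was dim throughout at 23.8 without a present call, 50.2 and 105, at least 2.11-fold and at least 4.42-fold higher. It was the only one of 9 mammary genes called. *Fam107a*, a glucocorticoid-induced gene on the list of pregnancy hormone receptors and response, was at 598, 1199 and 4709.9, 2.01-fold and 7.88-fold higher, and the other 19 genes compared on that list were not called. Its abdominal ratio lay just past the threshold and its dorsal ratio far past it.

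Of the 53 gene lists, that of macrophage and dendritic cells held the most lower genes. Of 22 compared, 8 were lower on both 15 dpc arrays and 0 were higher, and the medians were -0.74 on the abdominal and -2.02 on the dorsal array. The virgin array called all 22 present, the abdominal array 15 and the dorsal array 12. *Aif1*, a calcium-binding protein that marks macrophages, was at 119.7 on the virgin array and was not called present at 4.01 and 2.36, so that it was at least 18.2-fold and at least 12.8-fold lower. *C1qa*, *C1qb* and *C1qc*, neighbouring genes of the complement component that macrophages make, were all lower. *C1qa* was at 626, 171 and 70.8, at least 3.66-fold and at least 8.84-fold lower, without a present call on either 15 dpc array. *C1qb* was called present on each, at 672, 293 and 114, 2.29-fold and 5.88-fold lower. *C1qc* was at 329, 85.3 and 29.0, at least 3.86-fold and at least 11.3-fold lower. The dorsal array was the lowest for all 3. With the receptor *C3ar1* they made 4 lower genes of 12 on the complement list, whose medians were -0.34 and -0.75. The scavenger receptor *Cd163* was at 364, 157 and 67.8, 2.32-fold and 5.37-fold lower, and *Retnla*, a secreted marker of alternatively activated macrophages in mice, was at 571, 251 and 243, 2.28-fold and at least 2.35-fold lower. The remaining 2 called genes of the list were *Mrc1*, the mannose receptor, and *Ccr2*, the receptor of monocyte chemokines. Lower genes outside the list, chosen after their values were seen, included *Ptprc*, the common leukocyte antigen, at 491, 174 and 85.3, and *Mpeg1*, the perforin of macrophages, at 798, 252 and 114. Defining receptors of the lineage were not all called. *Adgre1*, the F4/80 antigen, was at 431, 219 and 79.2, and *Csf1r*, the receptor for macrophage colony-stimulating factor, at 903, 942 and 331, both under 2-fold from the virgin array at the abdominal site and over 2-fold lower at the dorsal site. The macrophage list's summed signal was 12947 on the virgin, 8595 on the abdominal, 9856 on the dorsal and 10265 on the PP2 array, so that the sum, unlike the median, was lowest on the abdominal array.

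**Figure D3:**
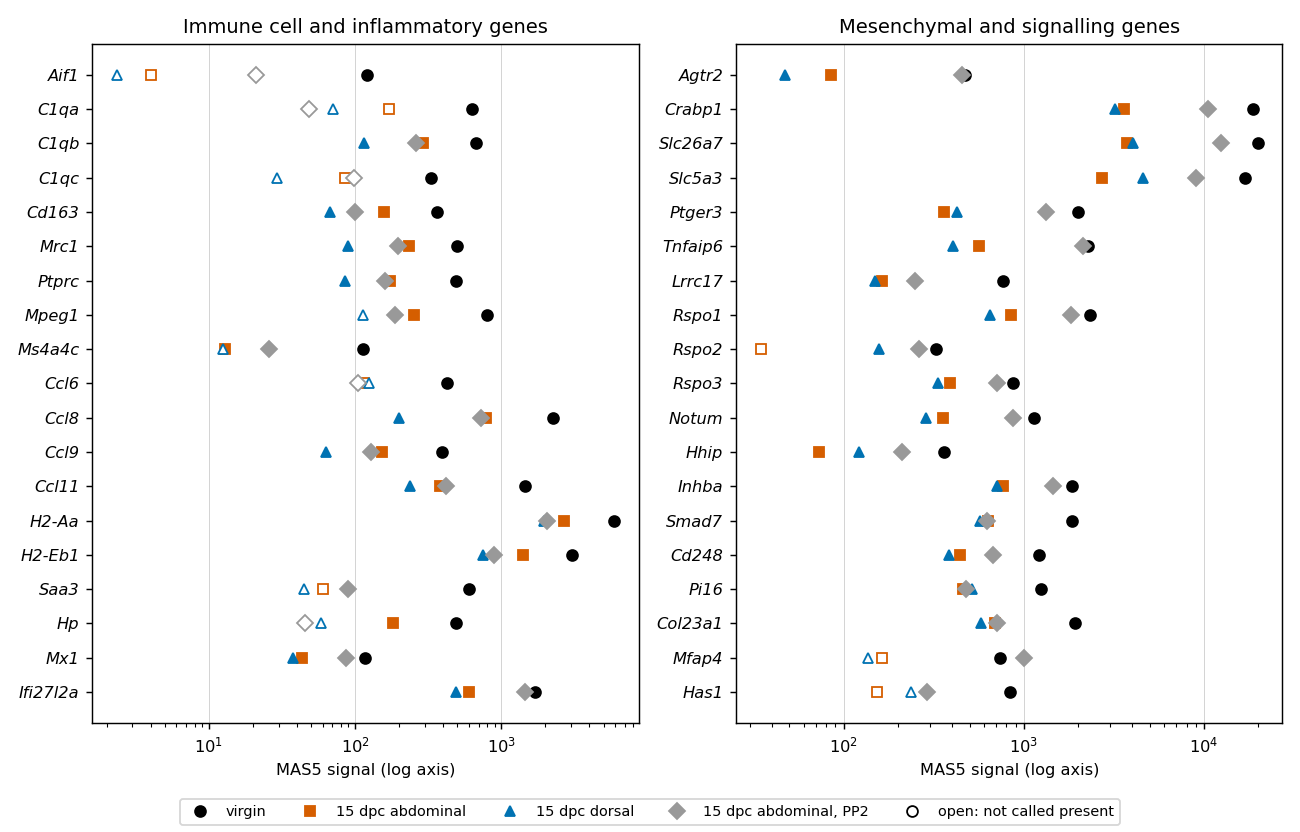
MAS5 signals (log axis) of 19 immune and inflammatory genes (left) and 19 mesenchymal and signalling genes (right) that were lower on both 15 dpc arrays, 1 symbol per array and open where not called present. By the rule of the comparison every virgin signal lies above both 15 dpc vehicle signals. On the right most PP2 signals lie between the virgin and vehicle ones.

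Some chemokine, antigen presentation and acute-phase genes were lower too. Of 15 chemokines and receptors compared 4 were lower and 0 higher, with medians of -0.97 and -0.35. *Ccl8* was at 2239, 782 and 201, 2.86-fold and 11.2-fold lower. *Ccl11*, the eosinophil chemokine eotaxin, was at 1460.5, 383 and 238, 3.81-fold and 6.14-fold lower. *Ccl9* was at 396, 152 and 63.5, and its neighbour *Ccl6* at 426 on the virgin array against 115 and 124 without present calls. The dorsal array did call the other probe set of *Ccl6* present, at 58.4 against 108 on the virgin array, only 1.84-fold lower. Together with *Ccl7* these *Ccl* genes made 5 of 10 compared, and 2 runs of neighbours, among 11 runs that held 26 of the 167 lower genes. The *Ms4a* family, membrane proteins of leukocytes, gave 5 lower and 0 higher genes of 9, with *Ms4a4c* at 113, 12.9 and 12.6, 8.74-fold and at least 8.95-fold lower. Of 8 MHC class II genes 2 were lower and 0 higher, with medians of -0.90 and -1.18. *H2-Aa* was at 5889, 2686 and 1973, 2.19-fold and 2.99-fold lower. *H2-Eb1* was at 3024, 1416 and 744, 2.14-fold and 4.07-fold lower. *Saa3*, an acute-phase serum amyloid, was at 598 and not called present at 60.8 and 45.1, at least 9.85-fold and at least 13.3-fold lower. *Hp*, haptoglobin, was at 491, 183 and 58.7, 2.68-fold and at least 8.37-fold lower. *Hamp2*, a hepcidin gene, was at 2233 on the virgin array and 196 and 207 without present calls, at least 11.4-fold and at least 10.8-fold lower. Of 23 interferon response genes 3 were lower, *Mx1*, *Ifi27l2a* and *Zbp1*, 0 were higher, and the medians were -0.62 and -0.73.

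The letters GAGGAAGT, a form of the site that ETS factors such as PU.1 of the macrophage lineage can bind, stood in the promoter windows of 10 of the 116 lower genes with a window (8.62%, both strands), of 3.36% of other higher genes, of 0 *Krtap* genes, of 2.81% of genes compared and of 3.28% of all windows. From the 10 genes, 4 were picked as genes of leukocytes or platelets and do not stand for the rest, which include a predicted gene. Whether these letters mark leukocyte genes was not tested. The 4 matches are shown with 20 bases on either side, 5′ to 3′ on the gene's strand, the match in capitals.
*C1qc* (chr4:136893082-136893129, minus strand): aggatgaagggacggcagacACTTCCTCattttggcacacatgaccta
*Pf4* (chr5:90772405-90772452, plus strand): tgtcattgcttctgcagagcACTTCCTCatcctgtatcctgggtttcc
*Tlr1* (chr5:64933554-64933601, minus strand): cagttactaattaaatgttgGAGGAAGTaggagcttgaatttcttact
*Retnla* (chr16:48842391-48842438, plus strand): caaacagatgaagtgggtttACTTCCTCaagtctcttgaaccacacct
In *C1qc*, *Pf4* and *Retnla* the match reads on the opposite strand and therefore appears as its reverse complement. *Pf4*, platelet factor 4, was at 863, 384 and 152, and *Tlr1*, a receptor for bacterial lipopeptides, at 42.7, with 2.87 and 20.6 not called present. These letters were 1 of 10 motifs searched on both strands. Besides the TATA box and the GC box, the others were the LEF/TCF site TTCAAAG, the AP-1 site TGANTCA, the E-box CACGTG, the cyclic AMP response element TGACGTCA, the NF-kB site GGAANTCCC, the interferon-stimulated element and the DR1 repeat of nuclear receptors. The LEF/TCF letters stood in 20.8% of the *Krtap* windows (5 of 24), in 7.56% of other higher genes, in 2.59% of lower genes and in 3.83% of genes compared. Those of AP-1 stood in 12.5%, 12.6% and 12.9% of the same 3 groups, against 5.33% of genes compared and 7.93% of all windows. The interferon-stimulated element was in 12.5%, 0% and 1.72% of them, against 3.02% of genes compared. The remaining motifs stood in at most 8.40% of the windows of any of the 3 groups and in at most 9.80% of those of genes compared. The motifs were chosen with the called genes known, and none of the shares was tested.

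Some mesenchymal genes were also lower at both sites. On the list of fibroblast identity genes 3 of 26 were lower (11.5%, against 1.26% of all genes compared) and 0 higher. The medians were -0.52 and -0.23, and 25 of the 26 were called present on each of the 3 arrays. *Mfap4*, *Has1* and *Tnfaip6*, also given below, are not on this list. *Crabp1*, a retinoic acid-binding protein of dermal papilla and upper dermal fibroblasts, was at 18584, 3586 and 3186, 5.18-fold and 5.83-fold lower. *Col23a1*, a transmembrane collagen, was at 1932, 692 and 575, 2.79-fold and 3.36-fold lower. *Pi16*, a marker of fibroblasts of connective tissue sheaths, was at 1243, 457 and 518, 2.72-fold and 2.40-fold lower. For these genes the 15 dpc arrays lay close to each other. *Mfap4*, an elastic fibre protein, was at 733 and, without present calls, 162 and 137, at least 4.52-fold and at least 5.35-fold lower. *Has1*, a hyaluronan synthase, was at 836 and, without present calls, 153 and 235, at least 5.46-fold and at least 3.55-fold lower. *Tnfaip6*, which modifies hyaluronan, was at 2284, 562 and 403, 4.07-fold and 5.67-fold lower. Of 22 fibrillar and network collagens *Col23a1* alone was called, and the medians were 0.05 and -0.04. Of 30 proteoglycans and matricellular proteins 2 were lower, *Has1* and *Thbs3*, and 0 higher.

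On the dermal papilla list 6 of 23 genes were lower, 1 was higher, and the medians were -1.16 on the abdominal and -0.22 on the dorsal array. The 6 were *Crabp1*, the hedgehog-binding protein *Hhip*, the Wnt-inactivating lipase *Notum*, the activin subunit *Inhba* and the Wnt-enhancing R-spondins *Rspo2* and *Rspo3*. *Notum* was at 1132, 356 and 286, 3.18-fold and 3.96-fold lower. *Hhip* was at 361, 72.9 and 121, 4.95-fold and 2.98-fold lower. *Inhba* was at 1847, 763 and 708, 2.42-fold and 2.61-fold lower. *Rspo3* was at 873, 390.0 and 335, 2.24-fold and 2.61-fold lower. *Rspo2*, at 327, 34.6 without a present call and 157, was at least 9.43-fold lower in abdominal but 2.09-fold in dorsal dermis. *Rspo1*, outside the list and chosen after its values were seen, was at 2335, 853 and 649, so that 3 R-spondin genes were lower at both sites. The single higher gene was *Corin*, a protease of the dermal papilla that acts on coat colour, at 39.8 with a marginal call, 114 and 84.4, at least 2.86-fold and at least 2.12-fold higher. Of 26 TGF-beta and BMP genes 2 were lower, *Inhba* and the inhibitory *Smad7*, which was at 1848, 631 and 568, 2.93-fold and 3.25-fold lower. The other probe set of *Smad7*, at 744, 581 and 697 and present throughout, was only 1.28-fold and 1.07-fold lower. The Wnt target list of 14 genes held 0 called genes.

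Transporters and receptors were also among the genes with the largest decreases in signal that all 3 arrays detected. *Slc26a7*, an anion exchanger, was at 19835, 3744 and 4047, 5.30-fold and 4.90-fold lower. *Slc5a3*, the sodium/myo-inositol cotransporter that responds to osmotic stress, was at 16865, 2725 and 4582, 6.19-fold and 3.68-fold lower. *Agtr2*, the type 2 angiotensin receptor, was at 471, 84.9 and 47.0, 5.55-fold and 10.0-fold lower. *Ptger3*, a prostaglandin E2 receptor, was at 1986, 361 and 426, 5.49-fold and 4.66-fold lower. That the abdominal and dorsal signals of these 4 were nearer to each other than to the virgin one follows from the rule for lower genes. *Nme1*, a nucleoside diphosphate kinase, was at 4761, 1488 and 750.1, *Rnase2b*, a ribonuclease gene, at 9332, 1691 and 854, and *Acaa1b*, a peroxisomal thiolase, at 1850.1, 395 and 79.6. These 3 were lowest in dorsal dermis, where they were 6.35-fold, 10.9-fold and 23.2-fold lower. The other probe set of *Nme1*, at 1378, 1145 and 598, was 1.20-fold lower in abdominal and 2.31-fold lower in dorsal dermis. *Angptl1*, *Ncam2* and *Abcd2* were 3.15-fold, 5.32-fold and 3.62-fold lower in abdominal dermis and 4.56-fold, 3.02-fold and 4.61-fold lower in dorsal dermis. *Lrrc17*, a secreted leucine-rich repeat protein, was at 762, 164 and 149, but its other probe set went the opposite way at both sites. *Fam107a*, *H2-Aa* and *Ccl9* each had another probe set under 2-fold in abdominal dermis, *Col23a1*, *Hhip*, *Ncam2*, *Pappa* and *Zic1* one under 2-fold in dorsal dermis, *Ccr2* one under 2-fold at both sites, and *Tspan8* had 4, all under 2-fold in abdominal dermis. Among called genes with several probe sets, 30 of 38 higher and 30 of 42 lower genes had every probe set on the same side of the virgin array at both sites, 15 and 12 had every one past 2-fold, and 1 and 5 had one that went the opposite way.

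Most of the lists held few or no shared changes, as the plot of list medians shows. Of 53 lists 21 held 0 called genes, 321 compared genes in all, among them those of the circadian clock (19 genes), the cell cycle and mitosis (25), cholesterol synthesis (19), blood endothelium (21), mechanical stretch and YAP (16), heat shock (14) and the respiratory chain (22). Together the lists took in 31 of the 175 higher and 46 of the 167 lower genes. The insulin-like growth factor axis gave 2 lower genes of 16, *Pappa*, a protease of the binding proteins, at 994, 418 and 434, and the dim *Igf2bp1*. The unfolded protein list gave 2 lower genes of 23, *Creld2* and *Sdf2l1*, both residents of the endoplasmic reticulum. *Creld2* was at 1938, 904 and 776, and *Sdf2l1* at 767, 369 and 241. The skeletal muscle list gave *Myh1* and *Neb* as 2 lower genes of 10, both dim, with a summed signal of the 10 genes of 939 on the virgin, 723 on the abdominal and 657 on the dorsal array.

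**Figure D4:**
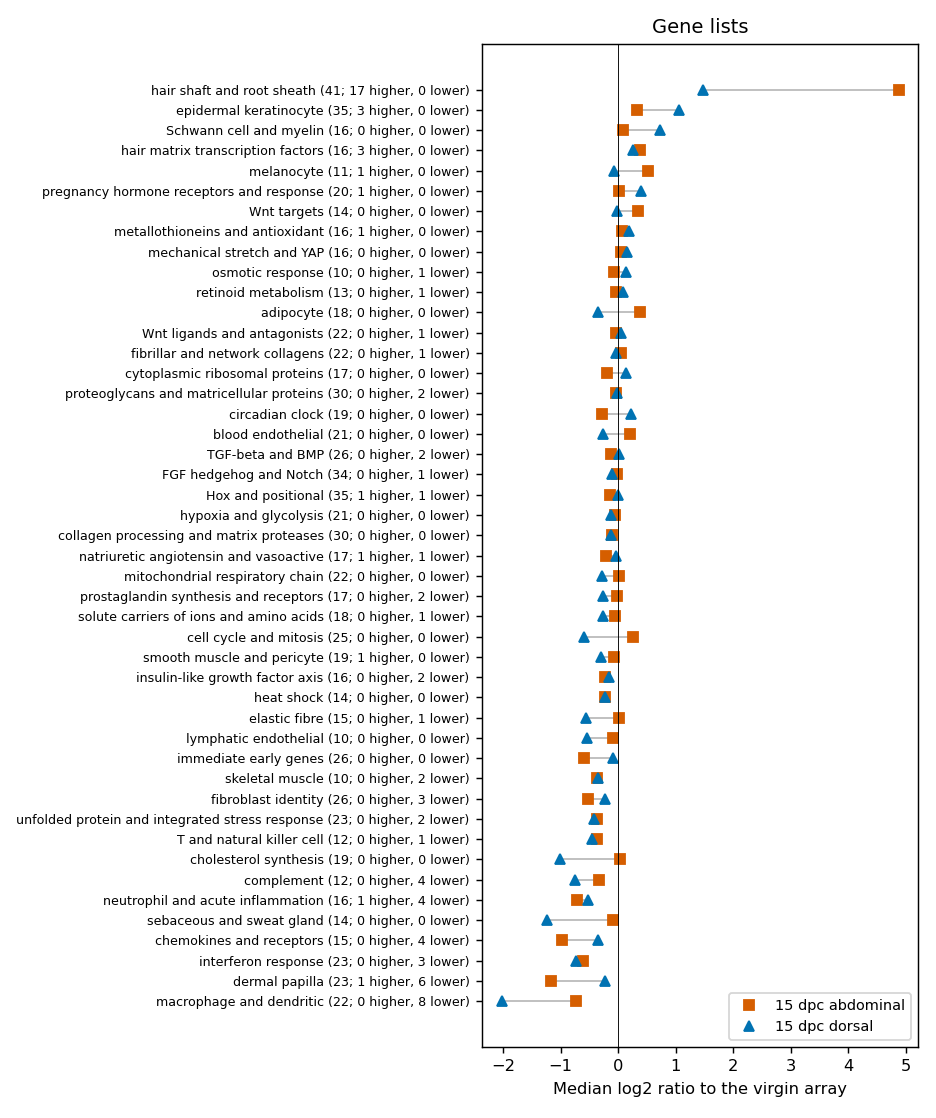
Median log2 ratio to the virgin array of the 46 lists with at least 10 genes compared, squares for the abdominal and triangles for the dorsal array, with the number of genes compared and of those higher and lower on both arrays after each name. The hair shaft list lies at 4.87 and 1.47 and the macrophage list at -0.74 and -2.02, while most lists lie near 0.

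None of 6 genes that the study followed in dermis or epidermis was higher or lower on both 15 dpc arrays. The study did not look for such shared changes. Its dermal candidates, *Sfrp1* and *Igfbp2* among them, were over 2-fold higher in 15 dpc abdominal than in virgin, PP2-injected and dorsal dermis. It followed *Tbx3* and *Axin2* in basal cells of the epidermis. The values here are those of 1 probe set per gene. *Sfrp1*, a secreted Wnt antagonist, was at 857 on the virgin, 851 on the abdominal and 992 on the dorsal array. The probe set used here thus did not show that abdominal excess over virgin or dorsal dermis. Signals of any other *Sfrp1* probe set are not given here. The values above therefore cannot decide whether the arrays showed that excess elsewhere in the gene. *Igfbp2*, a binding protein of insulin-like growth factors, was at 2023, 9084 and 646, which is 4.49-fold higher in abdominal dermis and 3.13-fold lower in dorsal dermis. Its ratios therefore had opposite signs, and it was 1 of 13 genes over 2-fold higher on the abdominal and over 2-fold lower on the dorsal array, while 8 genes showed the reverse. *Acta2*, the smooth muscle actin, was at 14744, 16453 and 7569, and the intermediate filament gene *Vim* at 39451, 29482 and 42093. *Tbx3*, a T-box factor, was at 1137, 719 and 1279.7, and the Wnt target *Axin2* at 888, 746 and 900.3. None of these last 4 differed from the virgin array by over 2-fold at either site.

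The PP2 array gives a further 15 dpc sample of abdominal dermis. Its control probes stood apart: the ratio of 3′ to 5′ *Gapdh* probe sets, a sign of RNA integrity, was 5.84, against 1.41 to 2.97 on the other arrays, and the 5′ probe set of 18S ribosomal RNA was at 256, against 9632 to 18337. The part of this in the PP2 signals was not tested. Because genes were named here for their distance from the virgin array on the vehicle arrays, a PP2 value nearer to virgin partly follows from that choice. Among the higher genes, *Bex1* and *Slc5a8* were brighter still on the PP2 array, at 15491 and 231, and *Angptl4* and *Ramp3* were at 4119 and 556, above the virgin array. *Il22ra2*, *Serpinb7* and *Mt4*, at 186, 385 and 1267, were near or below their virgin signals. *Krtap17-1* was at 871 and *Krtap19-3* at 56.6, and of the 25 *Krtap* genes 21 were called present on the PP2 array, the signals of all 25 running from 35.0 to 871 (median 110). Among the lower genes, *Agtr2*, *Tnfaip6*, *Nme1* and *Angptl1* were at 455, 2122, 4345 and 371, near their virgin signals, and *Mfap4* and *Pappa* at 999.6 and 1005, at or above them. *Crabp1*, *Slc26a7* and *Slc5a3* were at 10496, 12344 and 8989, between the virgin and vehicle signals. *Pi16*, *Ccl11* and *C1qa* were at 476, 419 and 48.1, on the side of the vehicle arrays or beyond. Thus genes lower on both vehicle arrays took no single position on the PP2 array.

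The arrays were alike in the share of probe sets called present and less so in control probes. Of 45101 probe sets, 58.4% to 59.7% were called present per array. The trimmed mean signal was 500.0 on each of the 4, as the scaling sets it. The median signal was 132 on the virgin, 125 on the abdominal, 136 on the dorsal and 103 on the PP2 array. The dimmest signal called present was 10.7 on the virgin, 6.57 on the abdominal and 9.36 on the dorsal array. The *Gapdh* ratio named above was 2.51 on the virgin, 1.41 on the abdominal and 2.97 on the dorsal array, and the ratio of the actin control was 2.64, 2.03 and 4.14, and 2.70 on the PP2 array. The part of these differences in the shared changes was not tested. The number of arrays limits the precision of every value above.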

How the data were processed

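RNA of dermal cells was hybridised to Affymetrix Mouse430_2 arrays, 1 per condition. The methods describe removal of the fat below the skin and digestion of scraped skin with collagenases and hyaluronidase, and describe no sorting of these cells. The authors deposited for each probe set a signal, an intensity on a linear scale from the MAS5 algorithm of Affymetrix Expression Console (version 1 in the submitters' processing notes), and a detection call. MAS5 scales each array to one trimmed mean, so that a group with much higher signals on an array lowers the scaled signals of other genes there. The table of all arrays differed from the single arrays at 0 probe sets.

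Of 45101 probe sets, 34945 had 1 gene symbol in the platform annotation, 932 several and 9160 none, and 64 were controls. Entrez identifiers of 34741 matched the RefSeq gene table of GRCm38.p6, used for names and gene order only, and changed 0 symbols. The files name no genome build. Promoter windows came from RefSeq on GRCm38.p6, the first window of a symbol being used.

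Ratios of deposited signals were computed in Python 3.11.15 with numpy 2.4.6 and pandas 2.3.3. The rule was run on simulated data with changes well past 2-fold in bright genes, every probe set being called present. That run cannot show how the rule performs on dim or undetected genes or near 2-fold. The text names from the 20 largest shared changes per direction detected on all 3 arrays, the 5 largest undetected on the dimmer side, up to 6 called genes of each list, *Sfrp1*, *Igfbp2*, *Acta2*, *Vim*, *Tbx3*, *Axin2* and the genes at the threshold. Other names were chosen after their values were seen. The members and the 53 gene lists were chosen with earlier results of these data known.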

Additional observations from a re-analysis of the deposited data

Results flagged for a closer look

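*Igfbp2* moved in opposite directions at the 2 sites: its log2 ratio to the virgin array was 2.17 on the abdominal and -1.65 on the dorsal array. *Krt28*, an inner root sheath keratin, did so too, with log2 ratios of 2.76 and -2.51, and the dorsal array did not call it present. Neither difference was tested, since each condition had 1 array, and both ratios share the virgin array.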

How the results depend on the processing

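Counts moved with the threshold and with dim genes. The shared higher and lower genes were 175 and 167 as reported, 540 and 448 at 1.5-fold, 54 and 54 at 3-fold, 356 and 410 by the mean of both log2 ratios, 105 and 79 with a present call on all 3 arrays, and 91 and 83 with 50 added to each signal. In the order abdominal higher, abdominal lower, dorsal higher and dorsal lower, single-site counts were 1288, 1133, 1532 and 1476 at 1.5-fold, 156, 161, 306 and 250 at 3-fold, 259, 277, 449 and 370 with a present call on all 3 arrays, and 239, 248, 462 and 343 with 50 added. Abdominal counts were 738 and 822 when any probe set could make the call. Scaling the present signals to one median gave 183 shared higher and 165 shared lower genes, and quantile normalization 185 and 159, of which 167 and 150 were among those reported. Of 135 named genes 34 crossed the 2-fold line with 50 added, 4 after quantile normalization and 1 after median scaling, and none of the called ones changed sign. With 50 added the hair shaft medians were 3.94 and 0.70 and the dorsal macrophage median was -1.32. The abdominal median of smooth muscle and pericyte genes, near 0 as reported, was 0.0315 after quantile normalization and 0.24 over all present probe sets, and that of chemokines was -0.37 over all present probe sets. The causes were not tested. No paired analysis was possible because each condition had 1 array, and for the same reason no replicate could be left out. Signal near the detection limit makes every fold of an undetected gene uncertain.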
